A study of Mus musculus with 16 samples.

Results

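The metabotropic glutamate receptor genes *Grm2*, *Grm3*, *Grm4*, *Grm5*, *Grm7* and *Grm8* were followed through single nuclei of the dentate gyrus (DG). They were chosen by symbol, as 6 of the 32285 genes counted. The study asked how granule cell (GC) subtypes arise and how a mutation of *Nrg1* affects them. DG tissue was microdissected from 4 WT mice (genotype VV) and 4 homozygous V321L mutants (genotype LL), with 2 females and 2 males per genotype, here named F1, F2, M1 and M2. V321L is a missense mutation of *Nrg1*, the gene of the growth factor neuregulin 1. The tissue was frozen, and RNA and accessible chromatin of the same nuclei were sequenced as 1 Multiome library per mouse. Ages of these mice are not given in the sources used here.

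Metabotropic glutamate receptors are G protein-coupled receptors that sense glutamate outside the cell. Group I receptors, to which *Grm5* belongs, couple to Gq and phospholipase C and sit mostly on postsynaptic membranes. Group II receptors (*Grm2* and *Grm3*) and group III receptors (*Grm4*, *Grm6*, *Grm7* and *Grm8*) couple to Gi/o, lower cyclic AMP and often restrain transmitter release from axon terminals. In the hippocampus, mossy fibers, the axons of GCs, are known for inhibition of release through group II receptors.

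The 6 genes lie on mouse chromosomes 5, 6, 7, 9 and 17, and their annotated spans differ widely. On GRCm38.p6, the reference release of the mm10 build, *Grm2* spans 11.6 kb, *Grm4* 91.4 kb, *Grm3* 240.1 kb, *Grm5* 551 kb, *Grm8* 860.03 kb and *Grm7* 922 kb. *Grm2* is thus the shortest and *Grm7* the longest of the 6. The RefSeq promoter table held *Grm2*, *Grm3*, *Grm7* and *Grm8*. The 250 bases before the annotated start are shown for both group II genes, because *Grm2* differed in direction from the other receptors between genotypes and *Grm3* had its highest levels in astrocytes and oligodendrocytes. Each is written 5′ to 3′ on the strand of the gene, and capitals mark GGGCGG, the GC box bound by Sp1-type factors.
Grm2 (chr9:106656110-106656359, minus strand): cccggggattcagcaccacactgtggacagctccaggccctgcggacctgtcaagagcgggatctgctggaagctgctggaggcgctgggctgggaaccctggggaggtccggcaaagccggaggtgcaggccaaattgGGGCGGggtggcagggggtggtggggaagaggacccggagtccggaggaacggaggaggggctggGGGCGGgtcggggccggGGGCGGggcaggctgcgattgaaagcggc
Grm3 (chr5:9725353-9725602, minus strand): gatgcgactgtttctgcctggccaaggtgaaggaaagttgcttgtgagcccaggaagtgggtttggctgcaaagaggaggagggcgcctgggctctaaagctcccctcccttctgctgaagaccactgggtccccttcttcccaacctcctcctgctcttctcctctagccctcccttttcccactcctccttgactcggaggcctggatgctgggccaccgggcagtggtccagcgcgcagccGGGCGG
The *Grm2* window had a GC content of 71.2%, 16 CpG dinucleotides and 3 GC boxes, counting both strands. The *Grm3* window had 62.4%, 8 CpGs and 1 GC box. The median of all promoters in the table was 52.4% and 6 CpGs, and 32.7% of 32851 promoters held a GC box. Neither TGACG, the core of the cyclic AMP response element (17.8% of all promoters), nor the E-box CAGCTG (13.001%) was found in these windows on either strand.

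Of 16360 nuclei, 14179 were assigned to 1 of 11 classes by marker genes that include no metabotropic glutamate receptor, and 10323 of these were GCs, with between 795 and 2356 per mouse. The levels of these markers are partly set by the gate and are no independent check of it. GC markers made up 70.3 of 10000 unique molecular identifiers (UMIs) in GCs. They made up 3.01 in nuclei gated by CA3 pyramidal markers, which had to lie under 30. In oligodendrocytes they made up 43.7, in microglia 25.9, in neuroblasts 22.9 and in astrocytes 19.7. *Prox1*, which marks the GC lineage and is among the GC markers, was at 254 ± 23.5 CPM (counts scaled to a library of 1e6) in GCs (SD, n = 8 mice). No class was gated for mossy cells, and whether the CA3 class holds such nuclei was not tested. The libraries of the 2 genotypes stood apart in depth. The median nucleus had 1096.5 to 1923 UMIs in WT mice and 2663 to 4131 UMIs in V321L mice. Its mitochondrial share was 0.0695% to 0.128% in the former and 0.389% to 1.17% in the latter. Depth, mitochondrial share and genotype cannot be told apart in this design. Between 33 and 70 barcodes per library also occurred in another library. Only 1 WT mouse had 10 CA1 nuclei, and no WT mouse had 10 neuroblasts, Cajal-Retzius or vascular nuclei, so those classes were described mostly from V321L mice. Levels below are CPM, the UMIs of a gene among 1e6 UMIs, both summed over the nuclei of a class in 1 mouse. They are not corrected for gene length and are compared within a gene only. Because free RNA enters droplets, many levels are set beside the CPM of the same gene in barcodes with at most 100 UMIs. Other levels are given without it.

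*Grm5*, the group I receptor among the 6, was found in CA3, CA1, granule and GABAergic nuclei and in oligodendrocyte precursors (OPCs). Its mean over mice was highest in CA3 nuclei, at 2600.5 CPM (n = 7), followed by CA1 nuclei at 2308 (n = 5), GCs at 2186 (n = 8) and GABAergic nuclei at 2156 (n = 8). The mice behind these means differ in genotype, with 4 WT and 3 V321L mice for CA3 but 1 WT and 4 V321L mice for CA1 nuclei, and within V321L mice CA1 nuclei (2188 CPM) were above CA3 nuclei (1958). The differences between neighbours in this order lay within the spread between mice. CA3 nuclei were not above CA1 nuclei (log2 difference -0.16 ± 0.33, SD, n = 4, exact sign-flip test, p = 0.375, adjusted p = 0.525 over the 6 genes), and 4 mice cannot give a p under 0.125. OPCs followed at 1444 CPM (n = 8), lower than GABAergic nuclei in 7 of 8 mice and above free RNA in 8 of 8. In GCs, *Grm5* exceeded free RNA by 2.43 to 2.86 times in WT and by 7.62 to 9.97 times in V321L mice. In Cajal-Retzius nuclei it was at 0 in 2 of 3 V321L mice.

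Of the group II genes, *Grm3* was highest in astrocytes and oligodendrocytes, but not high in all glia. It stood at 1298 CPM in astrocytes and 1236 in oligodendrocytes (mean of 8 mice each), and at 699 ± 344 in vascular nuclei of V321L mice (SD, n = 3). The vascular level rested on 35 UMIs in 51 nuclei. Astrocyte markers summed to 17.9 to 25.1 per 10000 UMIs in these vascular nuclei. They summed to 78.3 to 98.4 in V321L astrocytes and 1.14 to 1.46 in V321L GCs. The part of astrocyte RNA in the vascular level was not tested. Astrocytes and oligodendrocytes did not differ beyond their spread, with a log2 difference of -0.04 ± 0.55 (SD, n = 8, exact sign-flip test, p = 0.898). In astrocytes *Grm3* was between 9.24 and 80.0 times the free RNA level in the 8 mice, and in oligodendrocytes between 10.9 and 96.3 times. Thinned to 1000 UMIs per nucleus, a *Grm3* UMI was found in 108 of 173 WT and 220 of 402 V321L astrocytes, and in 9 of 730 WT and 0 of 170 V321L CA3 nuclei. The last count allows a share with a *Grm3* UMI of up to 3 in 170 at this depth, and does not bound the share expressing the gene. GCs held *Grm3* at 79.5 CPM (n = 8), OPCs at 43.0 and microglia at 30.3 (n = 7). In WT GCs *Grm3* was at 0.723 to 1.75 times the free RNA level, above it in 3 of 4 mice. In V321L GCs it was at 2.32 to 4.14 times, above in 4 of 4 mice. OPCs were lower than GCs in 7 of 8 mice, but the log2 difference of 1.59 ± 1.72 (SD) did not exceed its spread. The exact sign-flip test gave p = 0.0156, not adjusted for the other pairs of classes. The OPC level rested on 13 UMIs, with 3 or fewer in 7 of 8 mice.

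*Grm2*, the other group II gene, had its highest mean over all mice in GCs at 45.7 CPM (n = 8), which came from the V321L mice, and it was at 0 in the GABAergic nuclei of all 8 mice. The next class, Cajal-Retzius nuclei at 31.8 CPM, was lower in 3 of 3 mice, but with a log2 difference of 2.38 ± 3.26 (SD, exact sign-flip test, p = 0.25, the smallest that 3 mice allow). The *Grm2* level of WT GCs was no higher than free RNA. WT GCs held between 15.7 and 28.4 CPM, and WT free RNA between 17.3 and 43.1, which made GCs the lower of the pair in 4 of 4 mice. Their mean of 21.1 was also under that of WT microglia, 42.9 CPM from 4 UMIs. In V321L mice GCs were above free RNA in 4 of 4 mice, at 65.8 to 75.8 CPM against 35.5 to 57.1.

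Group III genes differed among classes. *Grm7* had its highest mean over all mice in CA3 nuclei, at 2861 CPM (n = 7), followed by GCs at 2084 (n = 8) and CA1 nuclei at 2016 (n = 5). This order depends on the mix of genotypes: CA1 nuclei were above GCs within V321L mice (1549 against 1484 CPM) and in WT (3882 in 1 mouse against 2683), where they were also above CA3 nuclei (3552). In 6 of 7 mice the CA3 level exceeded that of GCs, by 0.40 ± 0.30 on the log2 scale (SD), but the exact sign-flip test gave p = 0.0312, or 0.188 adjusted over the 6 genes, which did not pass. *Grm7* was also found in oligodendrocytes at 1227 CPM (n = 8), at 2.09 to 2.95 times the free RNA level in WT and 4.86 to 8.52 times in V321L mice. *Grm8* was highest in CA1 nuclei at 431 CPM (n = 5), but these ranged from 0 in V321L F1 and M2 to 1588 in WT F2, so that they did not stand apart from GABAergic nuclei at 361 (n = 8, exact sign-flip test over 5 mice, p = 0.438). Among GABAergic nuclei, those with more markers of the caudal ganglionic eminence (CGE) than of the medial one (MGE) held *Grm8* at 734 ± 220.0 CPM in WT (SD, n = 3) and 564 ± 76.7 in V321L mice (SD, n = 4). Those with more MGE markers held 320.85 ± 229 in WT (SD, n = 4) and 17.4 ± 12.004 in V321L mice (SD, n = 3). GCs held *Grm8* at 68.7 CPM (n = 8). *Grm4* was near the limit of detection everywhere, with 22 UMIs in all GCs (11 in WT and 11 in V321L mice), a highest mean of 10.7 CPM in CA1 nuclei, and 0 in the oligodendrocytes and OPCs of all 8 mice. *Grm6*, the remaining group III gene and no member of the 6, had 2 UMIs in GCs.

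**Figure D1:**
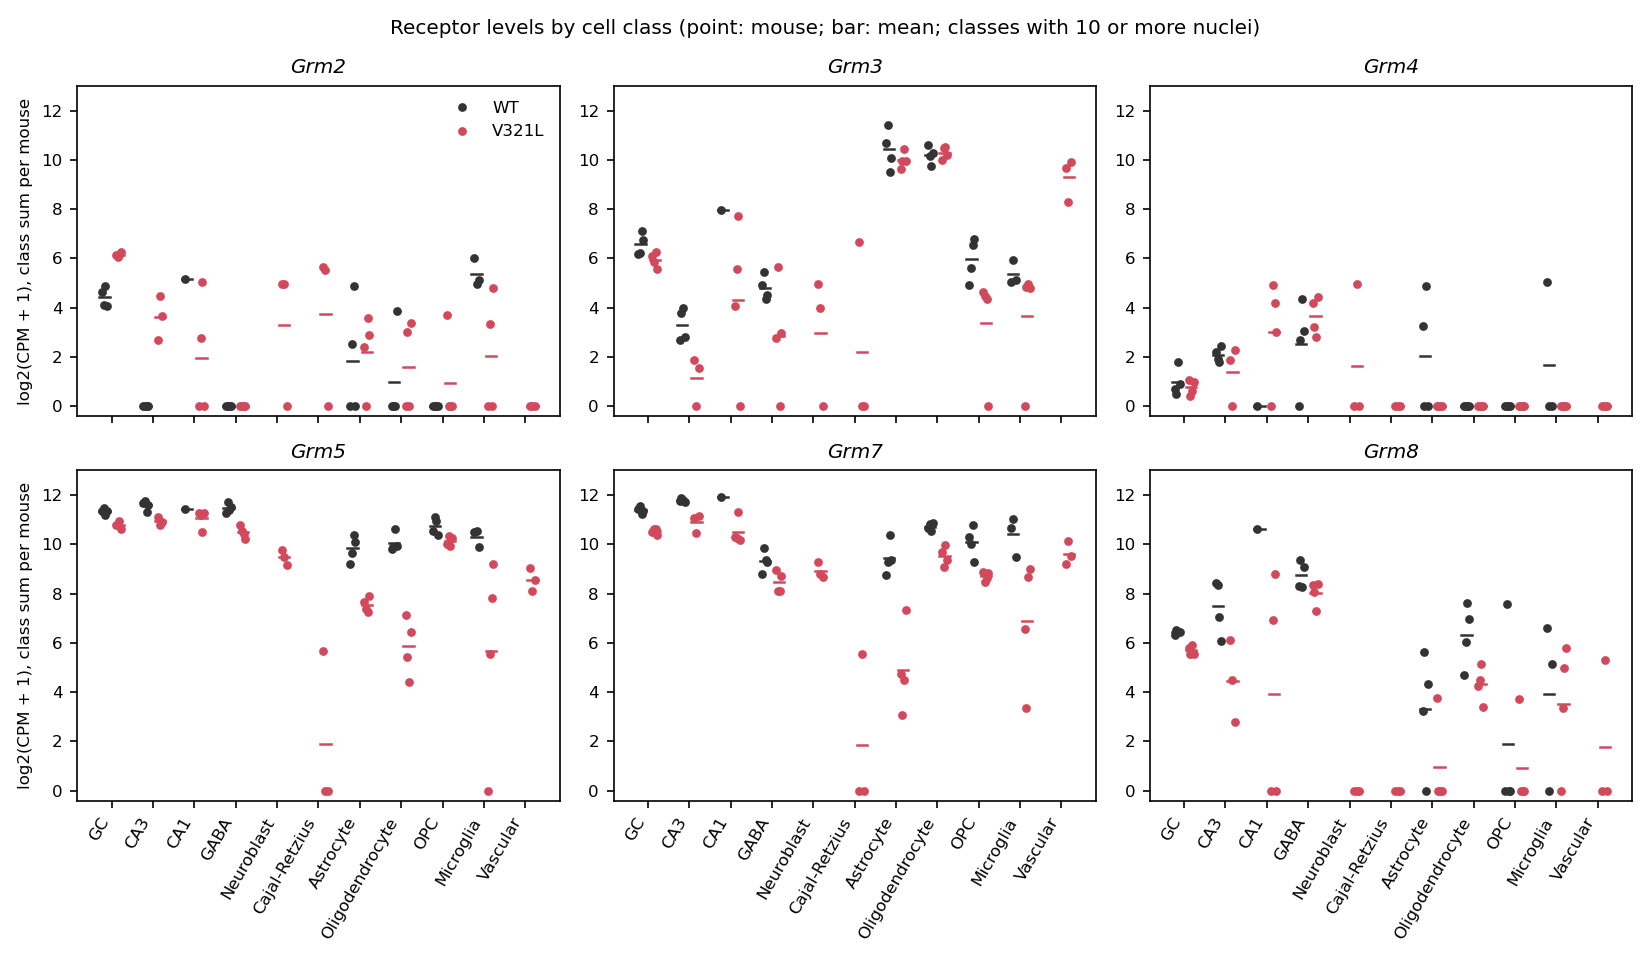
CPM of each gene on a log2(CPM + 1) axis by cell class, with WT in black and V321L in red, 1 point per mouse and a bar at the mean of the points. *Grm3* is highest in astrocytes, oligodendrocytes and vascular nuclei, the last of which also carried astrocyte markers. *Grm7* is highest in CA3, CA1 and granule nuclei, and *Grm5* in these and in GABAergic nuclei. *Grm2* lies higher in V321L than in WT GCs.

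Counts summed per mouse and class were also fitted together with edgeR, with mouse as a block, to set GCs against the mean of the other classes. Of 6568 genes tested, 44.3% were higher in GCs, so a call in this direction was common. *Grm5* was higher in GCs by a log2 fold change of 2.10 (SE 0.26, adjusted p = 1.3e-10) and *Grm7* by 2.11 (SE 0.26, adjusted p = 1.1e-10). In WT mice alone these were 0.82 and 1.11, and in V321L mice alone 2.44 and 2.31, all past the threshold. The other classes differed between these fits. Neuroblasts, Cajal-Retzius and vascular nuclei entered the V321L fit only, and CA1 nuclei came from 1 WT mouse. The values of WT and V321L mice are thus not measured against the same mean, and their difference was not tested. *Grm8* had a log2 fold change of 2.06 (SE 0.69, adjusted p = 0.0097), which fell to -0.34 in WT mice alone and missed the threshold without WT M1, V321L F1, V321L F2 or V321L M1, where it was 1.76 to 2.39, and with library sizes in place of TMM normalization, where it was 1.71. *Grm3* was at 0.42 (SE 0.28, adjusted p = 0.22). *Grm2* and *Grm4* had too few UMIs to be tested.

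The levels of some other genes ran along the 11 class means much like those of the receptors. The likeness was Pearson's r of log2(CPM + 1) over the 11 classes among 12731 genes, which share libraries and depth. The genes named have the highest of these values over only 11 points, and whether they exceed chance was not tested. The neuroblast, Cajal-Retzius and vascular means came from V321L mice alone. *Grm4* was at 0 in Cajal-Retzius, OPC, oligodendrocyte and vascular nuclei, and *Grm2* in GABAergic and vascular nuclei. *Csmd1* was most like *Grm5* (r = 0.981), followed by *Dlgap1* (0.976) and *Zfp804a* (0.975). For *Grm7* these were *Ryr2* (0.965), *Mtmr12* (0.953) and *Faah* (0.953), and for *Grm8* *Zbtb11* (0.960), *Necab1* (0.953) and *St6gal2* (0.932). The genes most like *Grm2* were *Pfkl* (0.874), *Ccpg1* (0.866) and *Gm27003* (0.863), those most like *Grm3* were *Sorbs3* (0.855), *Gpd2* (0.854) and *Olfml1* (0.849), and those most like *Grm4* were *Cdc25b* (0.852), *Fam49a* (0.833) and *Rell2* (0.828).

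Within GCs, the nuclei with a UMI of *Sorcs3*, a sortilin-family sorting receptor, had far more *Grm8*. The study identified semilunar GCs by *Sorcs3* together with *Penk* and *Nptx2*. Here *Sorcs3* was used alone, so these nuclei need not be semilunar GCs by that definition. *Grm8* was among the marker genes that the study counted in its *Penk*+ GCs. For its selected markers except *Grp*, the study found that nuclei with *Penk* and the marker made up more of the GCs in V321L mice. That is a share of nuclei, while the values below are levels. *Sorcs3*+ GCs numbered 1096 of 10323. In WT mice *Grm8* was at 232, 271, 395 and 306 CPM in the *Sorcs3*+ GCs of F1, F2, M1 and M2, and at 48.3, 67.0, 59.2 and 58.1 CPM in their *Sorcs3*- GCs. In V321L mice it was at 185, 155, 165 and 97.2 CPM in *Sorcs3*+ and at 34.8, 29.5, 43.6 and 37.9 in *Sorcs3*- GCs, in the same order of mice. The *Sorcs3*+ GCs were higher in 8 of 8 mice, with no overlap between the groups, and the ratio within a mouse lay between 2.56 and 6.68. Over all mice 39.9% of the *Grm8* UMIs of GCs came from the 10.6% of GCs with *Sorcs3*. With edgeR and mouse as a block, *Grm8* was higher in *Sorcs3*+ GCs by a log2 fold change of 2.18 (SE 0.09, adjusted p = 8.9e-128). Of 11060 genes tested, 5.88% were higher and 6.58% lower in *Sorcs3*+ GCs, and 3.38% had a higher CPM in all 8 mice. Among the 505 genes over 300 kb, where *Grm5*, *Grm7* and *Grm8* lie, 25.1% were higher and 27.1% lower.

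The other receptors differed less between *Sorcs3*+ and *Sorcs3*- GCs, and *Grm2* differed in the opposite direction. *Grm7* was at 3623 ± 247 CPM in *Sorcs3*+ and 2559 ± 227 in *Sorcs3*- GCs of WT mice and at 1866 ± 235 and 1428 ± 105 in V321L mice (SD, n = 4 each). It was higher in 8 of 8 mice, by a log2 fold change of 0.42 (SE 0.04, adjusted p = 1.1e-25 from edgeR). *Grm3* was at 123 ± 13.4 and 93.2 ± 34.4 CPM in WT and at 82.2 ± 16.0 and 58.5 ± 12.1 in V321L mice (SD, n = 4 each). It was higher in 7 of 8 mice, the exception being WT M1 with 137 against 138, by a log2 fold change of 0.49 (SE 0.10, adjusted p = 1.8e-05 from edgeR), but with at least 2 *Sorcs3* UMIs required it was 0.27, with an adjusted p of 0.28. *Grm5* was at 2924 ± 466 and 2543 ± 185 CPM in WT and at 1979 ± 180.3 and 1752 ± 149 in V321L mice (SD, n = 4 each). Its rise by 0.17 on the log2 scale (SE 0.04, adjusted p = 2.0e-04 from edgeR), in 8 of 8 mice, was the smallest, and without WT F2 it was 0.12 with an adjusted p of 0.12. With at least 2 *Sorcs3* UMIs it was 0.09, with an adjusted p of 0.49. *Grm2* was at 16.6 ± 9.84 and 21.9 ± 6.09 CPM in WT and at 51.9 ± 9.51 and 73.0 ± 4.92 in V321L mice (SD, n = 4 each). It was lower in *Sorcs3*+ GCs in 7 of 8 mice, by a log2 fold change of -0.50 (SE 0.14, adjusted p = 0.0057 from edgeR), and it rested on 130 UMIs in *Sorcs3*+ GCs. With DESeq2 the adjusted p of *Grm2* was 0.077. In WT mice alone its log2 fold change was -0.52 (SE 0.33, adjusted p = 0.48 from edgeR), on 23 UMIs in *Sorcs3*+ GCs. In V321L mice alone it was -0.48 (SE 0.15, adjusted p = 0.027 from edgeR), on 107 such UMIs. Thus 4 of the 5 receptors tested were higher and 1 lower. *Grm4*, with 4 UMIs in *Sorcs3*+ and 18 in *Sorcs3*- GCs, was too low to be tested.

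**Figure D2:**
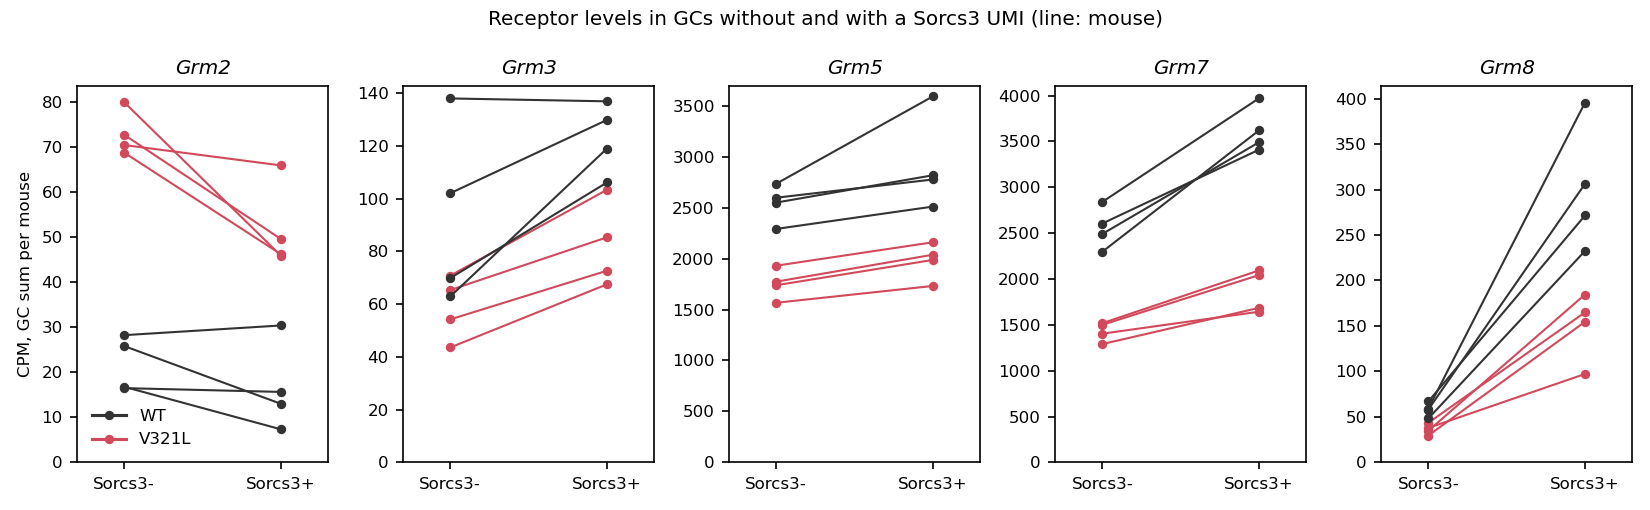
CPM of 5 receptors summed over the *Sorcs3*- and *Sorcs3*+ GCs of each mouse, with 1 line per mouse, WT in black and V321L in red, and each axis starting at 0. All 8 *Grm8* lines rise, from 29.5 to 67.0 CPM in *Sorcs3*- to 97.2 to 395 CPM in *Sorcs3*+ GCs.

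Shares of nuclei went the same way for *Grm8*. At 1000 UMIs per nucleus a *Grm8* UMI was found in a median of 15.8% of *Sorcs3*+ (range over 8 mice 6.45% to 23.6%) and 3.71% of *Sorcs3*- GCs (2.49% to 5.30%), higher in 8 of 8 mice. *Grm7* went from 80.6% to 90.1% and *Grm3* from 5.69% to 9.14%, each higher in 8 of 8 mice. *Grm2* went from 3.68% to 4.09% and was higher in 4 of 8. In all 8 mice *Sorcs3*+ GCs held more UMIs per nucleus, with medians of 1343 to 2955 against 1089 to 1912 in *Sorcs3*- GCs of WT mice and 3635 to 4728 against 3187.5 to 4657 in those of V321L mice. With *Sorcs3*- GCs matched on UMIs, the log2 fold change of *Grm8* was 2.23 (SE 0.09, adjusted p = 2.2e-56 from edgeR). Markers of other classes were compared in the 2 groups. OPC markers, 6 genes in all, summed to 0.594 to 1.67 per 10000 UMIs in *Sorcs3*+ and 0.182 to 0.410 in *Sorcs3*- GCs, against 76.8 to 104 in OPCs. GABAergic markers summed to 0.515 to 1.60 and 0.479 to 0.879, and CGE markers to 11.6 to 22.6 and 13.8 to 25.7. OPCs themselves held *Sorcs3* at 441 ± 66.3 CPM (SD, n = 8), and their *Grm8* level was 0 in 6 of 8 mice. The part of such nuclei in the result was not tested.

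None of the 5 receptors had a *Sorcs3* difference that differed between genotypes. The interaction of *Grm8* was -0.14 on the log2 scale (SE 0.17, adjusted p = 0.98 from edgeR), and 0 of 5 receptors had an unadjusted p under 0.05. Of the 11060 genes tested, 0.00904% were called, which is 1 gene. *Grm8* was higher in *Sorcs3*+ GCs by 2.31 (SE 0.12) in WT mice alone and by 2.11 (SE 0.13) in V321L mice alone, on the log2 scale.

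Between genotypes, all 5 receptors tested in GCs differed, with *Grm2* higher and *Grm3*, *Grm5*, *Grm7* and *Grm8* lower in V321L mice. The background of calls was large. Of 12260 genes tested with edgeR, 38.7% were higher and 31.9% lower in V321L GCs, so that 45.2% of the calls were lower. With library sizes in place of TMM normalization, which shifted the fold changes of all genes by a median of 0.45 (log2), 6648 genes were called higher and 2175 lower, or 24.7% of the calls. The receptors kept their direction and their calls under that scaling. CPM values carry no TMM factor, and therefore show smaller falls and larger rises than the fold changes.

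*Grm2* was at 23.7, 16.4, 28.4 and 15.7 CPM in the GCs of WT F1, F2, M1 and M2, and at 69.6, 65.8, 69.9 and 75.8 in those of V321L mice. The lowest V321L mouse was above the highest WT mouse. The log2 fold change was 1.34 (SE 0.15, adjusted p = 3.9e-06 from edgeR), and with free RNA subtracted it was 1.501. *Grm7* was at 2740.0, 2979, 2405 and 2608 CPM in WT and at 1436, 1572, 1590.1 and 1339 in V321L GCs. It fell by 1.31 on the log2 scale (SE 0.14, adjusted p = 2.9e-06 from edgeR). *Grm5* was at 2594, 2839, 2308 and 2618 CPM in WT and at 1772, 1808, 1959 and 1587 in V321L GCs, a log2 fold change of -0.99 (SE 0.14, adjusted p = 2.9e-05 from edgeR). Neither gene overlapped between genotypes.

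*Grm8* was at 79.2, 92.0, 86.6 and 87.0 CPM in WT and at 55.0, 46.2, 58.7 and 45.2 in V321L GCs, again without overlap. It fell by 1.204 on the log2 scale (SE 0.13, adjusted p = 3.6e-06 from edgeR). *Grm3* was at 72.3, 74.3, 138 and 105 CPM in WT and at 68.0, 56.7, 74.9 and 46.5 in V321L GCs. Its groups overlapped, since V321L M1 lay above WT F1 and F2, and its log2 fold change was -1.07 (SE 0.18, adjusted p = 1.3e-04 from edgeR). The CPM of 4 of the 5 receptors thus did not overlap between genotypes, where 64.6% of all genes tested did not. *Grm4* was at 1.09 ± 0.936 CPM in WT and 0.741 ± 0.347 in V321L GCs (SD, n = 4 each) and could not be tested.

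The genotype difference of a gene in GCs followed the length of its annotated span. Genes under 10 kb had a median log2 fold change of 1.71, those of 10 to 30 kb 0.55, those of 30 to 100 kb -0.21, those of 100 to 300 kb -0.73 and those over 300 kb -1.11. Of the 513 genes over 300 kb, 96.5% were called lower. *Grm5*, *Grm7* and *Grm8* are among these, *Grm3* lies in the class of 100 to 300 kb, and *Grm2* in that of 10 to 30 kb, where 52.4% of 3684 genes were called higher. *Grm5*, *Grm7* and *Grm8* lay between the quartiles of their class (-1.40 and -0.83), while *Grm2* lay above the upper quartile of its class (1.14) and *Grm3* just below the lower quartile of its own (-1.04). With the trend over span removed, an alternative chosen after seeing the data, the log2 fold change was 0.44 for *Grm2* (SE 0.13, adjusted p = 0.011), -0.26 for *Grm3* (adjusted p = 0.23), 0.11 for *Grm5* (adjusted p = 0.17), -0.05 for *Grm7* (adjusted p = 0.54) and 0.03 for *Grm8* (adjusted p = 0.80), all from edgeR. Only *Grm2* passed the threshold then, where 6271 of 11597 genes were called, 3096 higher and 3175 lower.

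**Figure D3:**
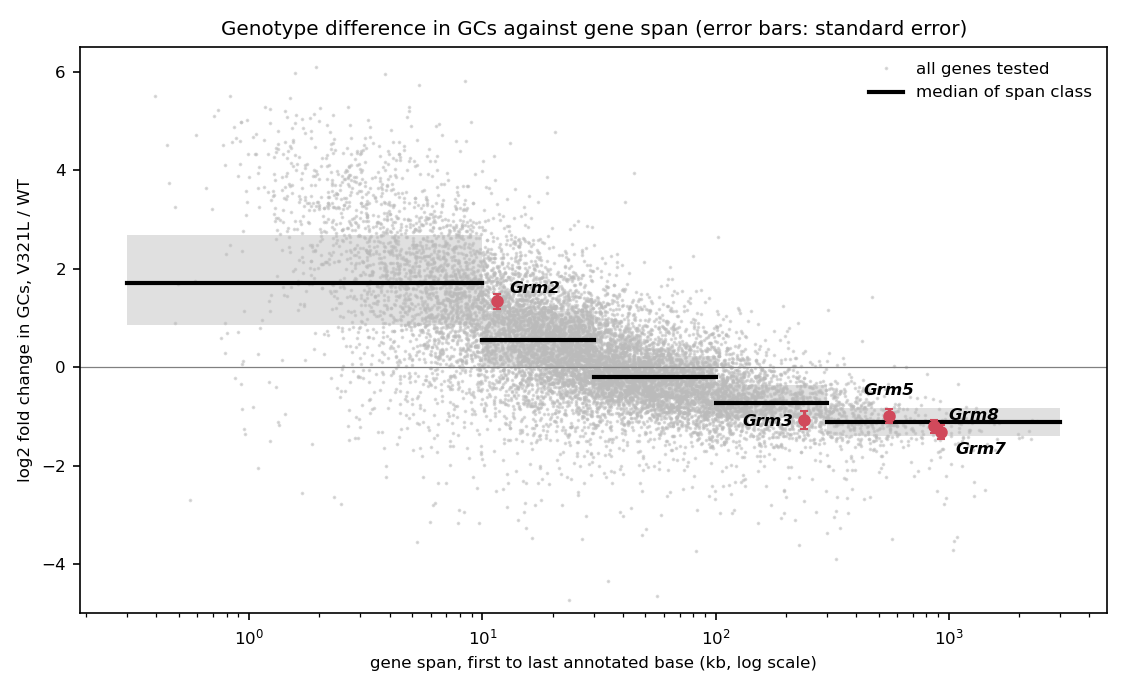
Log2 fold change in GCs (V321L over WT) of each gene tested, in gray, against its annotated span in kb on a log axis, with black lines at the median of 5 span classes, gray bands from the lower to the upper quartile, and the receptors in red with their SE. *Grm3*, *Grm5*, *Grm7* and *Grm8* lie between -1.31 and -0.99 among long genes, and *Grm2* at 1.34 among short ones.

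Because V321L nuclei held more UMIs, shares of GCs with a receptor UMI were compared at 1000 UMIs per nucleus, which kept 4706 WT and 3901 V321L GCs. *Grm2* was found in 2.08% ± 0.375 of GCs in WT and 6.07% ± 1.07 in V321L mice, *Grm5* in 88.8% ± 2.38 and 79.2% ± 3.23, and *Grm7* in 89.5% ± 1.75 and 72.9% ± 2.87 (SD, n = 4 each). For these 3 genes the mice did not overlap, and each exact permutation p was 0.0286, which is the lowest value possible with 4 mice per genotype, but the adjusted p over the 6 genes was 0.0571. How many of all genes had shares without overlap was not counted. In CPM, a different measure, 64.6% of the genes tested in GCs did not overlap, so these shares are no result about the receptors alone. *Grm8* was found in 6.01% ± 1.13 and 4.26% ± 0.946 (exact permutation p = 0.0857) and *Grm3* in 7.98% ± 2.74 and 5.90% ± 0.911 (exact permutation p = 0.314). *Grm4* was found in 3 of 4706 WT and 3 of 3901 V321L GCs. Without thinning, *Grm2* was found in 3.86% ± 0.962 of WT and 23.4% ± 2.94 of V321L GCs, and *Grm5* in 91.8% ± 4.06 and 97.1% ± 2.52, the latter in the opposite direction to that at equal depth. The same held for *Grm3* (12.4% ± 2.86 and 18.5% ± 3.81), *Grm7* (92.4% ± 3.63 and 95.5% ± 3.15) and *Grm8* (9.65% ± 1.95 and 13.1% ± 2.48). In GABAergic nuclei *Grm2* was found in 0 of 142 WT and 0 of 131 V321L nuclei at 1000 UMIs, and a count of 0 allows up to 3 nuclei in each. The estimated share of free RNA was lower in GABAergic nuclei than in GCs in all 8 mice. Each estimate is the lowest over marker sets of other classes. GC markers, on which GABAergic nuclei were gated to be low, entered for GABAergic nuclei but not for GCs, so this order is partly set by the method. The background in GCs was not measured by these counts.

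Outside GCs, 6 other classes had enough nuclei in both genotypes to be compared. *Grm5* and *Grm7* were lower in V321L mice in CA3, GABAergic, astrocyte and oligodendrocyte nuclei, and *Grm8* in CA3 and GABAergic nuclei. No receptor was called higher outside GCs, and *Grm2* and *Grm4* were too low to be tested there. Under alternatives 2 were: *Grm2* in CA3 nuclei without a filter on low counts (5.07, adjusted p = 0.0010), on 9 UMIs in V321L and 0 in WT mice, and *Grm3* in oligodendrocytes with the trend over span removed (0.72, adjusted p = 0.019), both from edgeR. In CA3 nuclei, without V321L M1, which had too few, *Grm5* was at 3237, 3463, 2575 and 3055 CPM in WT and at 2195, 1781 and 1897 in V321L mice. Its log2 fold change was -0.96 (SE 0.18, adjusted p = 1.8e-04 from edgeR), and that of *Grm7* was -1.14 (SE 0.19, adjusted p = 5.9e-05 from edgeR). With the trend over span removed neither was called, at -0.0062 and -0.03. *Grm8* was at 341, 327, 133 and 67.4 CPM in WT and at 67.6, 21.5 and 5.87 in V321L CA3 nuclei, where V321L F1 just overlapped WT M2. Its log2 fold change of -3.07 (SE 0.61, adjusted p = 2.8e-04 from edgeR) was called also with the trend over span removed, and it was -5.20 without V321L F1. All 3 receptors tested were lower, where 23.7% of 6692 genes and 82.3% of the 447 genes over 300 kb were. The CA3 gate held 128 to 325 nuclei per WT mouse and 7 to 88 per V321L mouse. A difference in the makeup of this class was not tested.

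In GABAergic nuclei *Grm5* was at 2478, 3353, 2727 and 2914 CPM in WT and at 1748, 1473, 1364 and 1193 in V321L mice, without overlap. The log2 fold change was -0.995 (SE 0.18, adjusted p = 3.1e-04 from edgeR), and *Grm5* was called under all alternatives run. *Grm7* had a log2 fold change of -0.87 (SE 0.26, adjusted p = 0.016) and *Grm8* one of -0.81 (SE 0.27, adjusted p = 0.032), both from edgeR. Both overlapped between genotypes, and neither passed without WT F2 (-0.67 and -0.61), with library sizes (-0.68 and -0.63), at 1000 UMIs per nucleus (-0.10 and 0.32) with a stricter marker gate (-0.27 and 0.02) or with the trend over span removed (-0.29 and -0.25). *Grm8* also missed the threshold without V321L M1, at -0.60, and with free RNA subtracted, at -0.74. *Grm7* was at 0.710 to 1.40 times the free RNA level in WT GABAergic nuclei, above it in 1 of 4 mice. In V321L GABAergic nuclei it was at 2.31 to 5.15 times, above in 4 of 4 mice. The class differed in its mix, with 115 MGE and 49 CGE nuclei in WT and 54 and 68 in V321L mice. *Grm5* was at 3379 ± 549 CPM in WT (n = 4) and 1672 ± 407 in V321L (n = 3) MGE nuclei and at 1626 ± 303 (n = 3) and 1234 ± 209 (n = 4) in CGE nuclei (SD), and the part of the mix in the result was not tested. Of 2745 genes tested, 12.5% were lower, and of the 425 over 300 kb 35.1%.

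In glia *Grm5* and *Grm7* were read beside free RNA that differed between the genotypes in the same direction. Free RNA held *Grm5* at 808 to 1077 CPM in WT and 159 to 257 in V321L libraries, and *Grm7* at 546 to 864 and 82.0 to 117. In oligodendrocytes, the myelinating cells, *Grm5* was at 892, 961, 1568 and 965 CPM in WT and at 140.3, 42.6, 20.5 and 85.6 in V321L mice, a log2 fold change of -3.74 (SE 0.43, adjusted p = 1.9e-05 from edgeR). The WT level was above free RNA in 1 of 4 mice and the V321L level in 0 of 4. GC markers summed to 48.6 to 54.7 per 10000 UMIs in WT and 35.4 to 45.2 in V321L oligodendrocytes, and oligodendrocyte markers to 88.6 to 191 and 287 to 314. The part of these in the result was not tested. *Grm7* was at 1609.8, 1831, 1490.1 and 1848 CPM in WT and at 829, 543, 999 and 665 in V321L oligodendrocytes, above free RNA in 8 of 8 mice, and fell by 0.9999 (SE 0.23, adjusted p = 0.0024 from edgeR), though not past the threshold at 1000 UMIs per nucleus, where it was -0.75, or with the trend over span removed, where it turned to 0.54. *Grm3* was at 1199 ± 277 and 1273 ± 212 CPM (SD, n = 4 each), and its log2 fold change was 0.25 (SE 0.21, adjusted p = 0.38 from edgeR). In this class 21.3% of 1937 genes were lower, and 61.2% of the 312 over 300 kb.

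In astrocytes, which take up glutamate, *Grm5* was at 592, 805, 1320.0 and 1092 CPM in WT and at 199, 165, 152 and 237 in V321L mice, and its log2 fold change was -2.20 (SE 0.28, adjusted p = 3.6e-05 from edgeR). *Grm7* was at 432, 630.1, 1320.0 and 660.3 CPM in WT and at 25.4, 7.34, 21.7 and 160.1 in V321L mice, and its log2 fold change was -3.74 (SE 0.61, adjusted p = 2.1e-04 from edgeR). *Grm5* was above free RNA in 2 of 4 mice of each genotype and *Grm7* in 1 of 4. GC markers, 10 genes, summed to 27.0 to 41.1 per 10000 UMIs in WT and 7.91 to 14.9 in V321L astrocytes, against 58.1 to 84.5 in GCs. Their part in the result was not tested. *Grm3*, the receptor with the highest ratio to free RNA in this class, was at 1658, 2734, 730.2 and 1079 CPM in WT and at 788, 999, 1408 and 986 in V321L mice. The groups overlapped, and the log2 fold change was -0.51 (SE 0.33, adjusted p = 0.23 from edgeR). Without WT M1 it was -0.78, with an adjusted p of 0.041. Of 3230 genes tested in astrocytes, 19.3% were lower, and of the 392 over 300 kb 60.5%.

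In OPCs *Grm7* was at 1262, 1021, 1762 and 627 CPM in WT and at 471, 351, 392 and 454 in V321L mice, without overlap, and fell by 1.10 (SE 0.27, adjusted p = 0.0025 from edgeR), but at 1000 UMIs per nucleus the value was -0.65 and not called. *Grm5* was at 1753 ± 412 and 1134 ± 149 CPM (SD, n = 4 each), with a log2 fold change of -0.34 (SE 0.20, adjusted p = 0.24). Of 715 genes tested, 7.69% were lower, and of the 282 over 300 kb 14.2%. In microglia, without WT M1, which had too few nuclei, *Grm5* had a log2 fold change of -2.32 (SE 0.98, adjusted p = 0.12) and *Grm7* one of -2.35 (SE 0.94, adjusted p = 0.10), both from edgeR. The count of receptors called was therefore 0 of 2, both had an unadjusted p under 0.05, and 4.54% of 1388 genes were lower. V321L M2 was the highest of the V321L mice for both, and without it both were called, at -3.69 and -3.08. GC markers summed to 30.3 to 53.1 per 10000 UMIs in WT and 10.8 to 30.9 in V321L microglia, and microglial markers to 47.9 to 63.0 and 115 to 203, and their part in the values was not tested. Differences between classes in the size of the genotype effect were not tested.

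**Figure D4:**
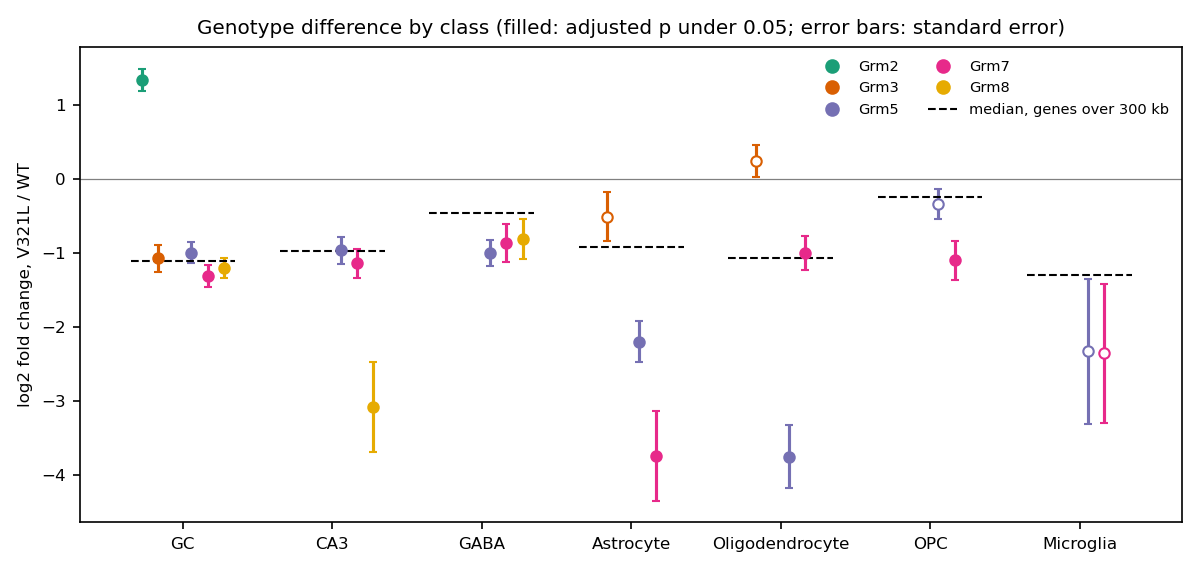
Log2 fold change (V321L over WT) of 5 receptors in 7 classes with SE, filled where the adjusted p was under 0.05, and a dashed line at the median of genes spanning over 300 kb in that class. In GCs, CA3 and GABAergic nuclei *Grm5* lies between -0.995 and -0.96, and in astrocytes and oligodendrocytes at -2.20 and -3.74.

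Accessibility at the promoters was measured in the same nuclei. Peaks, called by the authors in each library separately, overlapped the window of 1 kb on each side of a start in all 8 libraries for *Grm3*, *Grm5* and *Grm7*. For *Grm2* this held in 1 library, for *Grm8* in 2 and for *Grm4* in 5. The *Grm7* peaks shared 797 bases in all libraries, chr6:110645148-110645944 (mm10). At 1000 ATAC counts per nucleus, a count at the *Grm7* promoter was found in 3.45% ± 0.683 of GCs of WT and 3.43% ± 0.507 of V321L mice (SD, n = 4 each), with an exact permutation p of 0.943. For *Grm5* the shares were 2.84% ± 0.159 and 3.48% ± 1.05, and for *Grm3* 1.45% ± 0.486 and 2.14% ± 1.02 (SD, n = 4 each, exact permutation p = 0.229 for both, 0.343 adjusted over the 3 genes). Differences in the direction of the RNA were not detected, and peak bounds differ between libraries. Across classes, *Grm3* promoter counts were found in more astrocytes than GCs in 8 of 8 mice, by 3.43 ± 2.999 percentage points, and in more oligodendrocytes than GCs in 5 of 8 mice, by 1.89 ± 2.97 points, while those of *Grm5* and *Grm7* were found in more GCs than astrocytes in 8 of 8 mice, by 2.67 ± 1.06 and 3.19 ± 0.877 points (SD, n = 8 each). Over all mice, 2 of 696 astrocytes and 310 of 9269 GCs had a count at *Grm7*.

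**Figure D5:**
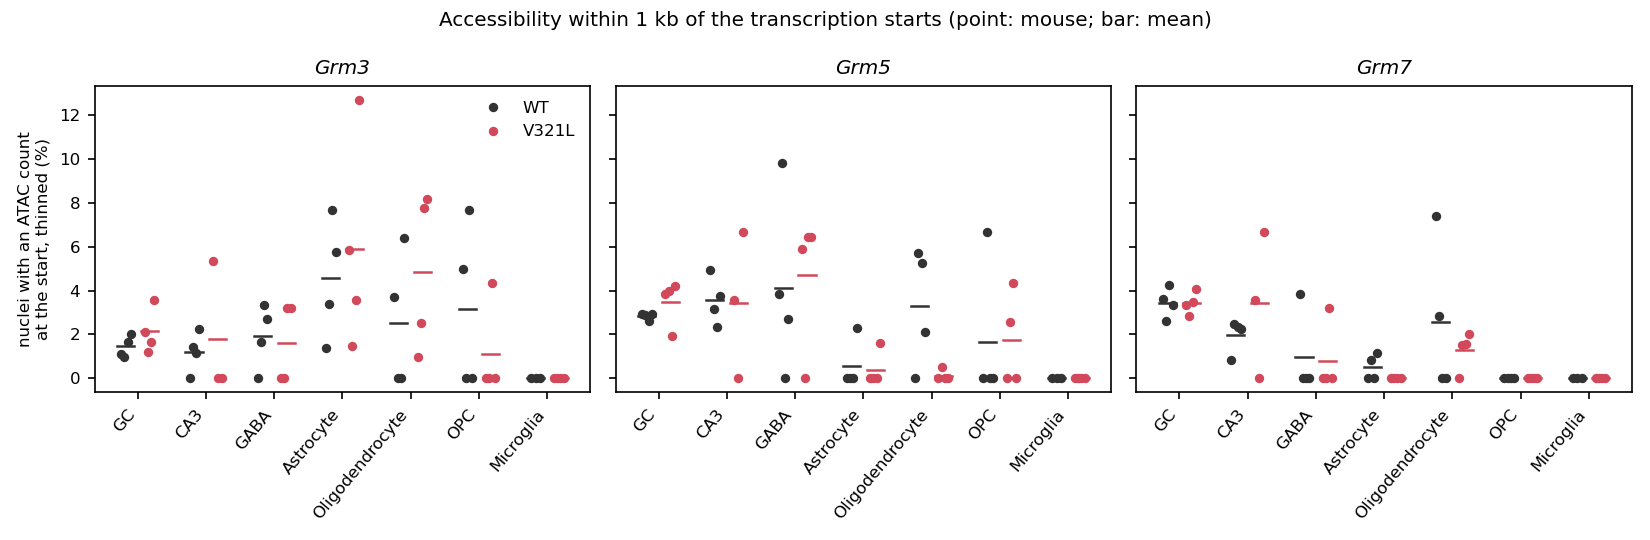
Share of nuclei in percent with an ATAC count within 1 kb of a start of *Grm3*, *Grm5* or *Grm7* after thinning to 1000 ATAC counts, by class, with 1 point per mouse, WT in black, V321L in red and a bar at the mean. In GCs the genotypes overlap for all 3 genes, with means of 3.45% and 3.43% for *Grm7*.

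Other genes of the pathway were counted from a list of 45 names, of which the files held 42. In GCs 40 were tested between genotypes, 18 were higher and 17 lower in V321L mice and 5 were not called, where 38.7% of all genes were higher and 31.9% lower, and their median change was 0.29 on the log2 scale, where that of all genes tested was 0.12. Of 8 scaffolds and synaptic partners tested, 6 were higher and 1 lower, with a median of 1.18. Of 10 genes of the Gq arm 4 were higher and 6 lower, and of 13 genes of the Gi/o arm 3 were higher and 9 lower. Of 9 regulators, which end or limit receptor signaling, 5 were higher and 1 lower. The 6 scaffolds and partners that were higher span 8.55 to 51.4 kb. In the Gi/o arm the 9 genes that were lower span 38.9 to 379.6 kb, and the 3 that were higher 8.82 to 49.7 kb. The part of span in these counts was not tested. The largest rises were those of *Grasp*, a scaffold of group I receptors, from 7.19 ± 2.22 to 72.3 ± 8.53 CPM (log2 fold change 2.96, SE 0.18), *Ncdn*, which encodes neurochondrin (2.02, SE 0.29), and *Gnai2*, an inhibitory G protein subunit (1.73, SE 0.27). The largest falls were those of *Plcb4* (-2.25, SE 0.25) and *Plcb1* (-1.25, SE 0.14), phospholipases of the Gq arm, and *Homer1*, which ties group I receptors to the postsynaptic density (-1.39, SE 0.11). The 3 genes that rose span 8.55 to 21.3 kb and the 3 that fell 101 to 689 kb. These adjusted p-values from edgeR lay between 6.5e-08 and 6.6e-05.

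Between *Sorcs3*+ and *Sorcs3*- GCs, 40 of the same genes were tested, of which 11 were higher, 7 lower and 22 not called, where 5.88% of all genes were higher and 6.58% lower, and their median was -0.00, where that of all genes tested was -0.03. The largest rises in *Sorcs3*+ GCs were those of *Necab2*, a calcium-binding protein known to bind mGluR5, from 5.54 ± 2.87 to 16.6 ± 11.6 CPM (SD, n = 8, log2 fold change 1.45, SE 0.28), *Adcy8*, a calcium-stimulated adenylyl cyclase, from 43.7 ± 8.69 to 97.4 ± 25.3 CPM (1.14, SE 0.11), and *Plcb4* (1.01, SE 0.33). The largest falls were those of *Elfn2*, a transsynaptic partner of group III receptors (-0.71, SE 0.21), *Itpr1*, the IP3 receptor that releases calcium downstream of Gq (-0.55, SE 0.06), and *Dgkz*, a diacylglycerol kinase (-0.52, SE 0.13). Their adjusted p-values from edgeR lay between 4.8e-24 and 0.022.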

How the data were processed

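The deposited matrices hold raw UMI counts per gene and raw ATAC counts per peak (signal in peaks called per library) for every barcode, which the authors produced with Cell Ranger ARC on the mm10 build. Per the labels, each mouse gave 1 RNA and 1 ATAC library. These counts are not normalized, while the authors normalized them with Seurat in their own analysis.

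Barcodes were kept with 500 to 8916.1 UMIs, 250 to 3307.5 genes (bounds excluded), less than 2.79% mitochondrial UMIs and 500 ATAC counts or more. Doublets were scored with Scrublet, and 655 barcodes over the mean by 2 SD within their library were left out. RNA libraries held 4326426 to 14624265 UMIs in WT and 15505354 to 23582057 in V321L mice. A nucleus was assigned to a class where its marker UMIs per 10000 passed a fixed limit (30 for GCs) with at least 2 markers and 3 marker UMIs. Nuclei that passed for several classes other than GCs (217) or got no class (1964) were left out. The latter include nuclei that passed for GCs and also by CA3, CA1, GABAergic or Cajal-Retzius markers. Nuclei that passed for GCs and for 1 glial, vascular or neuroblast class were kept in that class. Values of those classes can therefore include nuclei that passed the GC limit. Sums of at least 10 nuclei were used, and nuclei with at least 1 *Sorcs3* UMI counted as *Sorcs3*+.

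Counts summed per mouse and class were tested in R 4.3.3 with edgeR 4.0.16 (quasi-likelihood test, TMM, filter on low counts, Benjamini-Hochberg adjustment over all genes tested, threshold 0.05). DESeq2 1.42.0 was the second tool. The SE of a log2 fold change is its size divided by the root of the F statistic. Shares were compared by two-sided exact permutation tests, and classes within mice by two-sided exact sign-flip tests on log2(CPM + 1). Other steps used Python 3.11.15 and scipy 1.17.1. The tests were tested on simulated data. Replicate names were taken as names and not as pairs, and mice were the replicates in all tests. edgeR shares its estimate of spread across genes. Its p-values and SE therefore do not measure the spread of a single gene between mice alone. A count of 0 was taken to allow up to 3 counts, and such limits cover counting error only.

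The text names all 6 receptors and *Grm6*, the 3 largest rises and falls in the partner list among genes past the threshold, and for each receptor the 3 genes most like it among those with at least 20 CPM in a class. The receptors, the marker lists and the partner list were chosen with earlier results of these data known. Alternatives changed normalization, tool, filter, covariates, depth, free RNA, gate, doublets and the mice included. The mutated base in *Nrg1* was not analysed here.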

Additional observations from a re-analysis of the deposited data

Results flagged for a closer look

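In 8 of 80 groups of 4 mice, 1 mouse lay far from the other 3. The gap is given as a share of the range of the group, with Dixon's 95% critical value as the limit, which chance passes in about 1 of 20 groups. In GABAergic nuclei of V321L mice, *Grm3* was at 49.4 CPM in F2 and at 0 to 6.82 in the others (gap 0.862). In CA1 nuclei of V321L mice, M1 stood apart for *Grm5*, at 1466 CPM against 2346 to 2478 (gap 0.870), and for *Grm7*, at 2559 against 1156 to 1247 (gap 0.935). In WT oligodendrocytes, *Grm5* was at 1568 CPM in M1 and at 892 to 965 in the others (gap 0.891). In V321L astrocytes, *Grm7* was at 160.1 CPM in M2 and at 7.34 to 25.4 in the others (gap 0.882). In WT OPCs, *Grm8* was at 190.03 CPM in F2 and at 0 in the other 3 mice (gap 1). The log2 difference of *Grm5* between *Sorcs3*+ and *Sorcs3*- GCs was 0.39 in WT F2 and 0.10 to 0.14 in the other WT mice (gap 0.838). The share of V321L GCs with an ATAC count at the *Grm5* promoter was 1.92% in M1 and 3.84% to 4.20% in the others (gap 0.840).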

How the results depend on the processing

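Of 318 values of main results under alternatives, 295 kept their direction and their side of the threshold, and of 573 values of single receptors 531 did. For those below the cause was not tested. With the trend over gene span removed, chosen after seeing the data, the count of receptors called by genotype was 1 in GCs in place of 5, where 6271 of 11597 genes were called. It was 1 in CA3 nuclei in place of 3 and 1 in GABAergic nuclei in place of 3. The log2 fold change then turned to 0.11 for *Grm5* and 0.0345 for *Grm8* in GCs and to 0.54 for *Grm7* in oligodendrocytes. In GABAergic nuclei 1 was also called with library sizes, without WT F2, at 1000 UMIs and with a stricter gate, and *Grm8* turned to 0.32 at 1000 UMIs and to 0.0187 with the stricter gate. At 1000 UMIs 1 receptor was called in oligodendrocytes in place of 2 and 0 in OPCs in place of 1. Without a filter on low counts 5 were called in CA3 nuclei and 2 in microglia in place of 0, and 2 in microglia also with doublets kept or without V321L M2. For classes other than GCs, the counts of all genes called under these alternatives are not given here. The changes in those classes are therefore no result about the receptors alone. In GCs 10224 of 24532 genes were called without the filter, against 8653 of 12260 with it. For *Sorcs3*, 3 receptors were called at 2 or more UMIs in place of 5 (*Grm3* and *Grm5* were lost), *Grm5* turned to -0.0322 without a filter, which moved the median of all genes by -0.21, and 7 partner genes were called in WT mice alone in place of 18. Of all genes, 3039 were then called without a filter and 585 in WT mice alone, against 1378. *Grm8* in GCs against other classes turned to -0.34 in WT mice alone, where fewer other classes entered the fit. At 500 UMIs per nucleus the differences in share of GCs were 2.02 points for *Grm2*, -13.5 for *Grm5*, -19.7 for *Grm7* and -1.41 for *Grm8*, all past the threshold (exact permutation test, adjusted p = 0.0429, shares of all other genes not tested). Leaving out each mouse in turn, these differences at 1000 UMIs ranged from 3.51 to 4.37, -10.6 to -8.17, -17.5 to -15.2 and -2.18 to -1.29, all 4 past the threshold without WT M1, and 1 to 3 receptors were called in GABAergic nuclei and 0 to 2 in microglia. With the replicate block, the counts by genotype were 5 in GCs, 3 in CA3 nuclei, 35 for partner genes, and no call changed. Same-named mice correlated at 0.04, 0.27, -0.13 and 0.03 in GCs, and only F2 correlated best with its own name. These values cannot show whether the mice were handled in pairs.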
